A study of Mus musculus with 10 samples.

Results

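Transcripts of the cytosolic ribosomal proteins were examined in 5 tissues of aged mice with and without yogurt in the diet. Members were the genes whose platform symbol was Rpl or Rps followed by a number, together with Rpsa, Rplp0, Rplp1 and Rplp2; ribosomal S6 kinases and pseudogenes were left out. This naming rule found 46 genes among the 18194 genes named by a probe set with 1 symbol, 24 of the large and 22 of the small ribosomal subunit. Each gene was represented by the probe set whose mean over all 10 arrays was greatest, and 100 probe sets carried the symbol of 1 of these genes alone. A further 29 ribosomal protein symbols, Rpl5 and Rplp1 among them, stood only on probe sets annotated to several genes and are not members.

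The mice were males of the outbred ICR stock, 28 months old and housed singly under specific-pathogen-free conditions. The control group ate the AIN-93 purified diet, and the yogurt group ate AIN-93 with 1 to 2% LB81 yogurt, each from 8 months of age. RNA from liver, spleen, distal colon, jejunum and ileum was pooled over 10 yogurt-fed or 9 control mice, and each pool was measured on 1 Affymetrix 3' expression array. Both groups were old animals, so neither shows what ageing itself did, and 1 pool per diet and tissue leaves no spread between mice.

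The cytosolic ribosome translates nuclear-encoded mRNA and consists of ribosomal RNA and a large set of proteins, most of which are present once in each particle. Ribosomal protein mRNAs are among the most abundant in a cell. Their transcripts usually begin with a C followed by a run of pyrimidines, the TOP motif, through which mTOR signalling adjusts their translation. Liver, intestinal epithelium and spleen make and renew protein and cells at very different rates, and several ribosomal proteins have gene copies (Rps27l, Rpl39l, Rpl3l, Rps4l) expressed in particular tissues or states.

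Promoter windows of RefSeq (assembly GRCm38.p6, 250 bases before to 50 after a transcript start) were matched for 40 of the 46 genes, with 48 windows in all. The 4 letter strings searched do not contain one another. CTTTC on the transcribed sense strand, within 25 bases of the start on either side, stood in 12 member windows (25%) and in 6.75% of all 32851 windows. CCGGAAG, the core bound by ETS factors such as GABPA, stood on either strand in 20 member windows (41.7%) and in 8.86% of all windows. The palindrome CTCGCGAG stood in 7 member windows (14.6%) and in 0.92% of all windows. CACGTG, the E-box of Myc and Max, stood in 5 member windows (10.4%) and in 7.15% of all windows. These matches describe the letters only, and no factor was measured.

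The sequences below run from 60 bases before to 20 bases from the start onward. They belong to genes on which the results turn. Among these were Rps27, with the most extreme diet ratio, its copy Rps27l, higher in liver, and Rpl39, whose diet ratios were apart in several tissues. Rps25, Rpl12 and Rpsa led the spleen contrast, Rps6 separated the gut segments and Rpl27a was low in distal colon. The last is the stalk gene Rplp2. Capitals mark the strings named above.
Rps27, chr3:90213629-90213708, minus strand: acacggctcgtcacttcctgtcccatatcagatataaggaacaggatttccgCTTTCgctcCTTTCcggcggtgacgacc
Rps27l, chr9:66946026-66946105, plus strand: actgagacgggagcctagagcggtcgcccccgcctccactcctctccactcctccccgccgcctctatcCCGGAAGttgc
Rpl39, chrX:37085203-37085282, minus strand: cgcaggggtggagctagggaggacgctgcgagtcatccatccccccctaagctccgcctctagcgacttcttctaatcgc
Rps25, chr9:44407654-44407733, plus strand: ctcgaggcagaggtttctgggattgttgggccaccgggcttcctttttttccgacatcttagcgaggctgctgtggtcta
Rpl12, chr2:32961652-32961731, plus strand: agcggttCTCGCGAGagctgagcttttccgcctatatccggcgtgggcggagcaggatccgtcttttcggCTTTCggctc
Rpsa, chr9:120127706-120127785, plus strand: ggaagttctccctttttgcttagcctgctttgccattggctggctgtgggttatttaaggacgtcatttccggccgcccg
Rps6, chr4:86857348-86857427, minus strand: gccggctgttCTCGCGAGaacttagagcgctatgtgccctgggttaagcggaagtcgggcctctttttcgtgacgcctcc
Rpl27a, chr7:109519135-109519214, plus strand: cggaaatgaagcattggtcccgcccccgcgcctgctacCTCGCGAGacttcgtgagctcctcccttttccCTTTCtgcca
Rplp2, chr7:141447591-141447670, plus strand: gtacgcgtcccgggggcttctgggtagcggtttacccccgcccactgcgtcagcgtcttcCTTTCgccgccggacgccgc
In the stretches printed, Rps27 held CTTTC near its start and Rps27l did not, while Rps27l held CCGGAAG. Rpl12, Rps6 and Rpl27a shared CTCGCGAG, and Rpl39, Rps25 and Rpsa held none of the strings within these stretches. In the full windows counted above, CCGGAAG stood for Rpl39, Rps25, Rpsa, Rps6, Rpl27a and Rplp2 as well as Rps27l. It was absent from the windows of Rps27 and Rpl12.

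Values are the deposited log2 expression values. Those below an array's 50th percentile, which lay between 5.42 and 5.50, were raised to it, and this percentile is called the floor. The 2 arrays of a tissue correlated at 0.991 to 0.994 (Spearman) over probe sets, given as a description. Marker genes matched the labelled tissues: all 11 hepatocyte markers were higher in liver, all 10 B cell and all 6 erythroid markers in spleen, all 10 enterocyte markers in jejunum and all 11 smooth muscle markers in distal colon, each against the mean of the other 4 tissues. All 11 smooth muscle markers were also higher in jejunum and in ileum, with medians of 0.92 and 1.63 beside 2.55 in distal colon. In jejunum 12 of 13 exocrine pancreas genes were higher (median 6.16). Their part in the jejunum differences was not tested. The 3'/5' signal ratio, a measure of RNA integrity on 3' arrays, was 0.05 to 0.23 on the log2 scale for Gapdh on the 6 gut arrays. It was 0.86 and 0.98 on the liver arrays and 1.29 and 1.01 on the spleen arrays (yogurt and control). For actin it was 0.66 to 1.01 in gut, 1.82 and 2.01 in liver, and 1.09 and 1.01 in spleen.

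Most ribosomal protein transcripts were near the top of the measured range. Of the 46 genes, 43 lay above the floor on at least 2 arrays and were tested; their mean log2 values over the 10 arrays ran from 5.46 to 13.69 with a median of 12.94, and 34 of them exceeded 12. The other 9, which include many of the genes with the widest tissue differences described here, were Rps4l, Rpl39, Rpl12, Rpl14, Rps25, Rpl27a, Rps27, Rps6 and Rpl37. Apart from Rpl27a and Rps6, each of these had only 1 single-symbol probe set. The part of low signal in the size of their differences was not tested. The 3 genes below the floor on all 10 arrays were Rpl3l, the muscle copy of Rpl3, Rpl39l, the testis copy of Rpl39, and the only single-symbol probe set of Rps16, a core small-subunit gene for which no level can be read here. The level of one probe set is not comparable with that of another, so the comparisons below are between arrays for the same gene.

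The tissues differed in ribosomal protein mRNA, with liver low and spleen and distal colon high. Each tissue was compared with the mean of the other 4 in a limma model of tissue and diet over the 10 arrays and 13599 genes, with Benjamini-Hochberg adjustment over all genes and a threshold of 0.05. The residual in this model, with 4 degrees of freedom, is how far a gene's diet ratio varied from tissue to tissue, so the p-values do not measure spread between mice. In bulk tissue, fewer cells of a type and less RNA per cell cannot be told apart. A difference among the tissues was called for 42 of the 43 genes, against 93.4% of all genes tested. The exception was Rps27 (adjusted p = 0.177, moderated F test in limma). Its spleen arrays stood at 7.39 with yogurt and 8.93 in control, and its SE against the other tissues was 0.27, beside a member median of 0.03. The missing call therefore does not show that Rps27 is even across tissues, and a second probe set shared with Rps27rt, described below, was lower in liver. The tissue range of a member was in the median 0.94 on the log2 scale, against 1.23 for all genes.

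**Figure D1:**
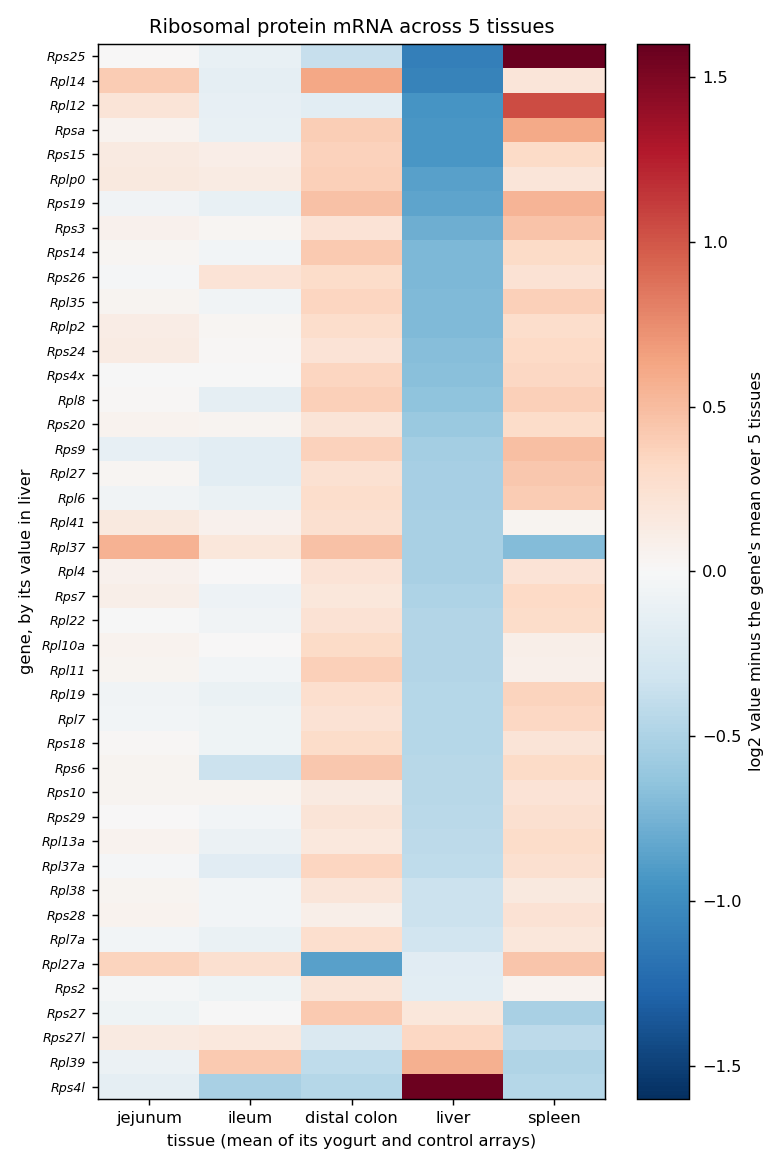
Log2 value of each of the 43 tested ribosomal protein genes (rows, ordered by liver) in each tissue (columns, mean of the yogurt and control arrays), as a difference from the gene's own mean over the 5 tissues; blue is lower and red is higher. The liver column is blue for most genes and the distal colon and spleen columns are red, while Rps27l, Rpl39 and Rps4l at the bottom are red in liver; values below the floor are drawn as deposited.

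Liver held less of nearly all of these transcripts. Against the mean of the other 4 tissues, 39 of 43 were lower (47.1% of all genes) and 3 were higher (32% of all genes), with a median difference of -0.64 against -0.13 for all genes. Liver had the lowest mean for 37 of the 43 genes, and for all of those 37 both liver arrays lay below the other 8, which held for 25.7% of all genes. The shift was similar in size in both subunits, with a median of -0.61 over 22 large-subunit genes and -0.69 over 21 small-subunit genes. Of the 39, 23 differed by at least 1.5-fold (26.7% of all genes were lower by that much) and 7 by at least 2-fold (14.9% of all genes).

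Rps25, a small-subunit protein near the exit site that internal ribosome entry depends on, was 6.89 and 7.0 in liver (yogurt and control). It was 7.57 to 8.14 on the 6 gut arrays and 9.61 and 9.63 in spleen. The 3 tissue classes did not overlap, and the liver difference was -1.37 ± 0.06 (SE; adjusted p = 2.0e-07, limma). Rpl14, a large-subunit protein, was 6.57 and 6.61 in liver and 7.47 to 8.35 on the other 8 arrays. Its liver difference was -1.34 ± 0.07 (adjusted p = 4.95e-07, limma). Rps25, Rpl14 and Rpl12 were each read from a single probe set of lower signal than most members. Weaker probe sets often gave larger liver differences than the main one, as for Rps10 (-1.70 against -0.55) and Rpl41 (-1.27 against -0.65). They gave smaller or opposite ones for Rps3 (-0.57 against -0.98), Rpl22 (0.00 against -0.58) and Rpl37a (0.26 against -0.51).

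Rpl12, which forms the base of the stalk together with Rplp0, was 6.08 and 6.05 in liver, 6.82 to 7.32 in gut, and 8.02 and 8.10 in spleen. Liver was lower by -1.19 ± 0.07 (adjusted p = 1.72e-06, limma) and spleen higher by 1.30 ± 0.07 (adjusted p = 8.84e-07, limma). Rplp0, the stalk scaffold that anchors the P1 and P2 proteins, was 12.33 and 12.30 in liver and 13.29 to 13.58 on the other 8 arrays, a difference of -1.08 ± 0.03 (adjusted p = 1.08e-08, limma). Rplp2, one of the P proteins of the stalk that recruit elongation factors, was 12.64 and 12.59 in liver and 13.34 to 13.63 elsewhere. Its difference was -0.88 ± 0.03 (adjusted p = 4.31e-08, limma). The stalk genes thus lay on the same side in liver.

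Rpsa, a small-subunit protein that also exists as the laminin receptor precursor, was 11.85 and 11.74 in liver. It was 12.58 to 12.82 in jejunum and ileum, 13.10 and 13.15 in distal colon, and 13.38 and 13.30 in spleen. The liver difference was -1.17 ± 0.04 and the spleen difference 0.76 ± 0.04 (adjusted p = 6.69e-08 and 7.49e-07, limma). Rpl11, which binds Mdm2 and so links ribosome assembly to p53, was 12.21 and 12.24 in liver and 12.61 to 13.08 elsewhere, with a difference of -0.58 ± 0.03 (adjusted p = 7.73e-07, limma). In spleen Rpl11 was higher by only 0.10 ± 0.03 (adjusted p = 0.0186, limma).

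The members higher in liver were copies or probe sets of low signal. Rps27l, a p53-responsive copy of Rps27, was 12.57 and 12.51 in liver, 12.34 to 12.38 in jejunum and ileum, 12.11 and 11.87 in distal colon, and 11.74 and 11.85 in spleen. Its liver difference was 0.41 ± 0.06 (adjusted p = 0.000344, limma), and its 3 probe sets gave 0.40 to 0.48. Rps4l, an autosomal copy of the X-linked Rps4x, was 7.50 and 6.57 in liver and below the floor on the other 8 arrays, so it was at least 2.93-fold higher in liver (adjusted p = 7.05e-05, limma). Values held at the floor show almost no spread, which makes that p too small, and a floor at the 65th percentile ended the call (0.41, adjusted p = 0.0598, limma). Rps4x itself was lower in liver by -0.84. Rpl39, a short protein lining the exit tunnel, was 7.30 and 6.94 in liver and 5.94 to 7.36 elsewhere; the ranges overlapped, and its difference of 0.71 ± 0.20 (adjusted p = 0.0132, limma) was not called without the liver yogurt array (0.56, adjusted p = 0.166) or without the liver control array (0.85, adjusted p = 0.0584).

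Spleen was the tissue with the highest mean for 22 of the 43 genes, a count for which the share of all genes is not given here. Against the other 4 tissues, 36 were higher (36.8% of all genes) and 3 lower (42.7% of all genes), with a median of 0.36 against -0.05 for all genes. Both spleen arrays lay above the other 8 for 18 of the 43 members, against 24.5% of all genes. Rps25 led by 1.97 ± 0.06, a 3.93-fold difference (adjusted p = 2.58e-08, limma), with Rpl12 and Rpsa next. Rps25 and Rpl12 were each read from a single probe set of lower signal than most members. Among probe sets above the floor on all arrays, weaker ones often gave larger spleen differences than the main one of the same gene. Examples were Rpl41 (1.72 against 0.05), Rpl13a (1.03 against 0.36), Rps10 (0.93 against 0.27), Rps24 (0.88 against 0.40) and Rpl27 (0.96 against 0.54). Weaker probe sets gave smaller or opposite differences for others, such as Rps3 (0.16 against 0.58), Rpl22 (-0.12 against 0.37) and Rpl37a (-0.59 against 0.31). The genes lower in spleen were Rpl37, Rpl39 and Rps27l. Rpl37, a zinc-binding large-subunit protein, was 9.04 on both spleen arrays, 9.21 and 9.22 in liver, and 9.87 to 10.32 in gut, so the spleen difference was -0.86 ± 0.04 (adjusted p = 2.89e-07, limma). Rps27l was lower by -0.52 ± 0.06 (adjusted p = 7.13e-05, limma). Rpl39 was lower by -0.60 ± 0.20 (adjusted p = 0.0260, limma), and this call was lost without either spleen array (-0.68 without the yogurt array and -0.52 without the control array, adjusted p = 0.0982 and 0.182) or without the liver yogurt array (-0.57, adjusted p = 0.0688). It was also lost with a 65th-percentile floor (-0.32, adjusted p = 0.0558) and with no filter on low values (adjusted p = 0.0544, limma).

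The distal colon also stood high. Against the other 4 tissues, 36 of 43 were higher (42.7% of all genes) and 4 lower (26.0% of all genes), with a median of 0.33 against 0.08 for all genes. Both distal colon arrays lay above the other 8 for 14 of the 43 members, against 16.8% of all genes. Rpl14 led (0.78 ± 0.07), followed by Rps19, a small-subunit protein mutated in Diamond-Blackfan anaemia (0.59 ± 0.04), and Rpl37 (0.58 ± 0.04), with adjusted p from 6.07e-06 to 2.45e-05 in limma. Of the 36, 2 reached 1.5-fold, against 18.5% of all genes. The 4 lower genes were Rpl27a, Rps25, Rps27l and Rpl12.

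Rpl27a, a large-subunit protein, went against the family in distal colon. It was 7.30 and 7.64 there (yogurt and control), 8.11 and 8.22 in liver, and 8.57 to 8.86 on the jejunum, ileum and spleen arrays. Both distal colon arrays lay below the other 8, which held for no other member and for 5.84% of all genes, and the difference was -1.09 ± 0.07 (adjusted p = 3.57e-06, limma). The second Rpl27a probe set was below the floor on all 10 arrays and gives no check. In distal colon Rps25 was lower by -0.45 ± 0.06 and Rps27l by -0.28 ± 0.06 (adjusted p = 0.000250 and 0.00354, limma); without the distal colon control array Rps27l was not called (-0.15, adjusted p = 0.0515).

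Within the gut, distal colon exceeded the mean of jejunum and ileum for 33 of 43 genes (39.9% of all genes) and lay below it for 3 (21.0% of all genes), with a median of 0.24 against 0.07. Rps6, the small-subunit protein phosphorylated by the S6 kinases downstream of mTOR, was 9.90 and 9.87 in distal colon, 9.57 and 9.42 in jejunum, and 9.15 and 9.06 in ileum. The 3 segments did not overlap, and distal colon was higher by 0.58 ± 0.04 (adjusted p = 1.94e-05, limma). Rps19 (0.56) and Rps9 (0.52) came next. The Rps9 difference changed sign, to -0.26, on its probe set that does not end in x_at or s_at, which was above the floor on 7 arrays. The 3 lower genes were Rpl27a, Rps27l and Rps25, by -1.18, -0.39 and -0.30.

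Jejunum and ileum were close to each other and to the mean of the tissues. Jejunum exceeded ileum for 11 of 43 genes (18.2% of all genes) and lay below it for 1 (19.6% of all genes), with a median of 0.07 against -0.00. The leaders were Rpl14 (0.56 ± 0.09), Rps6 (0.39 ± 0.05) and Rpl37 (0.38 ± 0.05), with adjusted p from 0.000888 to 0.00183 in limma; the lower gene was Rps26 (-0.23 ± 0.04, adjusted p = 0.00489), not called without the ileum control array (-0.21, adjusted p = 0.0505). With the mean of all probe sets Rps6 was not called here (0.17, adjusted p = 0.157, limma); its other probe set was below the floor on all 10 arrays. With cyclic loess 4 were higher and 1 lower. The count of 11 fell to 4 without the jejunum control array or without the ileum control array, and to 6 without the ileum yogurt array. Against the other 4 tissues, jejunum was higher for 13 (29.4% of all genes) and lower for 2 (35.1% of all genes), led by Rpl37 (0.70 ± 0.04), Rpl14 (0.51 ± 0.07) and Rpl27a (0.45 ± 0.07). This split depended on the scaling, with 11 higher and 5 lower after centring arrays on their medians and 6 higher and 11 lower with cyclic loess. The higher count was 7 without the jejunum control array. The 2 lower genes were Rps9 (-0.17, but 0.07 on the probe set not ending in x_at or s_at) and Rpl19 (-0.08, adjusted p = 0.0348 in limma), which lost its call without any 1 of 6 arrays; the count of 2 became 4 without the liver control array and 1 without any of 5 others, those of jejunum and ileum and the distal colon control.

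Ileum was lower for 16 (36.3% of all genes) and higher for 7 (29.4% of all genes), with a median of -0.06 beside -0.06 for all genes. Centring arrays on their medians gave 23 lower and 5 higher, and quantile normalization 12 and 9. Rps6 was the lowest of them (-0.43 ± 0.04, adjusted p = 4.38e-05, limma), and Rpl27a the highest (0.32 ± 0.07, adjusted p = 0.00382, limma). Rpl27a was not called without the ileum yogurt array (0.26, adjusted p = 0.0666). The count of 16 fell to 7 without the ileum yogurt array and to 8 without the ileum control array, and the count of 7 to 3 without the ileum yogurt array.

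Several genes had more than 1 probe set, which gave a further reading of the same contrast on the same RNA. Of 82 member probe sets above the floor on all arrays, 75 were lower in liver than the mean of the other tissues, 74 were higher in spleen and 72 were higher in distal colon. Of 19 genes with several such probe sets, 17 had all of them on one side in liver, 17 in spleen and 17 in distal colon. Rpl37a was an exception: 1 of its 3 probe sets, ending in x_at, was 0.26 above the other tissues in liver and -0.59 below in spleen, while the other 2 were -0.51 and -0.83 in liver and 0.31 and 0.39 in spleen. Among 97 probe sets annotated to a ribosomal protein together with other genes and above the floor throughout, 92 were lower in liver, 88 higher in spleen and 90 higher in distal colon, with medians of -0.67, 0.35 and 0.31. The same counts over all probe sets are not given here, so these have no background share.

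**Figure D2:**
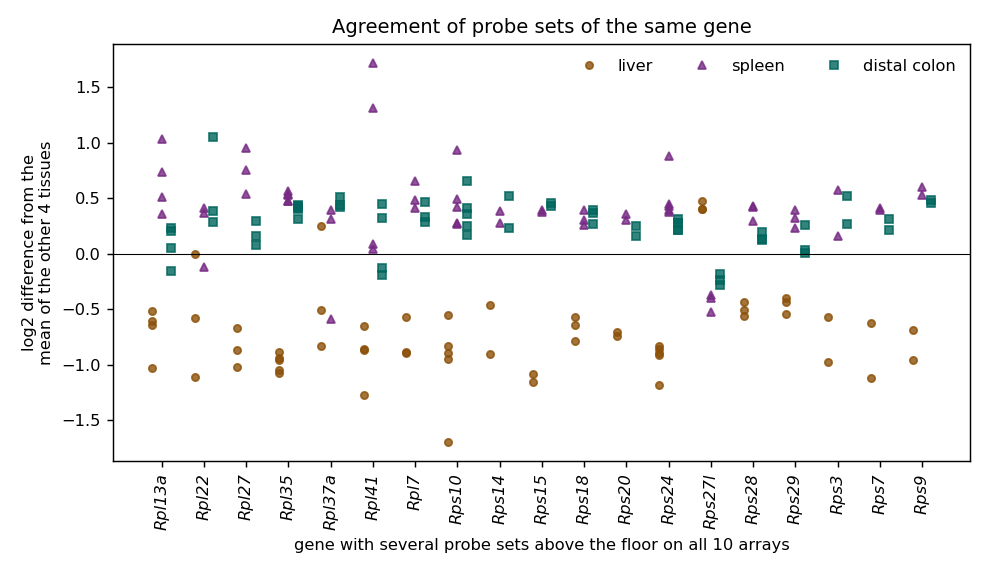
Each point is 1 probe set of a gene (x axis, 19 genes with several probe sets above the floor on all 10 arrays); the y axis is its log2 difference in liver, spleen or distal colon from the mean of the other 4 tissues. Liver points lie mostly below 0 and spleen and distal colon points mostly above, with Rps27l opposite and 1 Rpl37a probe set apart.

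Other parts of the translation machinery were read from lists of genes. Of 22 translation factors and other TOP mRNAs, 21 were lower in liver (median -0.48), 21 higher in spleen (0.43) and 20 higher in distal colon (0.32), none of them the other way. The shares of all genes were 47.1% lower in liver, 36.8% higher in spleen and 42.7% higher in distal colon. Eif3f, a subunit of initiation factor eIF3, was lowest in liver (-1.20 ± 0.03, adjusted p = 1.1e-08, limma), and Nap1l1, a histone chaperone with a TOP mRNA, highest in spleen (1.89 ± 0.04, adjusted p = 4.88e-09, limma). Fau, a ubiquitin-like fusion that encodes a ribosomal protein of the small subunit and that the naming rule misses, was lower in liver by -0.94 ± 0.03 and higher in distal colon (0.33 ± 0.03) and spleen (0.30 ± 0.03; adjusted p at most 6.44e-05, limma). The 22 translation genes and Fau were therefore called on the same side as most members in these 3 tissues, apart from the 1 or 2 translation genes that were not called.

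Ribosome assembly factors and RNA polymerase I, which makes the large ribosomal RNA precursor, followed this only in part. Of 47 assembly factors, 34 were higher and 4 lower in spleen (median 0.50), and 33 were lower and 9 higher in liver (-0.40), but in distal colon 12 were higher and 19 lower (-0.09). The nucleolar protein Nop56 was lowest in liver (-1.29 ± 0.05) and highest in spleen (1.23 ± 0.05), while Eif6, which keeps the subunits apart, was lower in spleen (-1.45 ± 0.04). Of 13 RNA polymerase I genes, 10 were higher in spleen (0.39) and none lower, with 6 higher and none lower in distal colon (0.16) and 2 higher and 5 lower in liver (-0.10). The 76 mitochondrial ribosomal proteins had a different order of tissues: 61 were higher and 2 lower in jejunum (0.27), 58 lower and 5 higher in spleen (-0.38), and liver had 35 higher and 27 lower (0.09). In jejunum 29.4% of all genes were higher and 35.1% lower.

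Genes of mTOR and Myc control were mixed, with 6 of 22 higher and 11 lower in liver and 8 each way in spleen. Among 12 p53 targets, 4 were higher and 7 lower in liver (median -0.50). In spleen 7 were higher and 2 lower (0.45). In distal colon 6 were higher and 3 lower (0.24), where 42.7% of all genes were higher and 26.0% lower. Proliferation genes varied in the same direction in liver and spleen: all 12 were lower in liver (median -2.79) and all 12 higher in spleen (2.31), and their summed level was 10.84 and 11.10 on the liver arrays, 12.54 to 13.31 in gut, and 14.73 and 14.81 in spleen. In distal colon, where the ribosomal proteins were high, 6 of the 12 were lower (26.0% of all genes) and none higher (42.7% of all genes), with a median of -0.20. The 10 B cell markers summed to 13.94 and 13.89 in spleen and to 8.65 to 10.74 elsewhere. The part of proliferating cells, lymphoid cells and the 3'/5' ratio in the tissue differences was not tested.

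**Figure D3:**
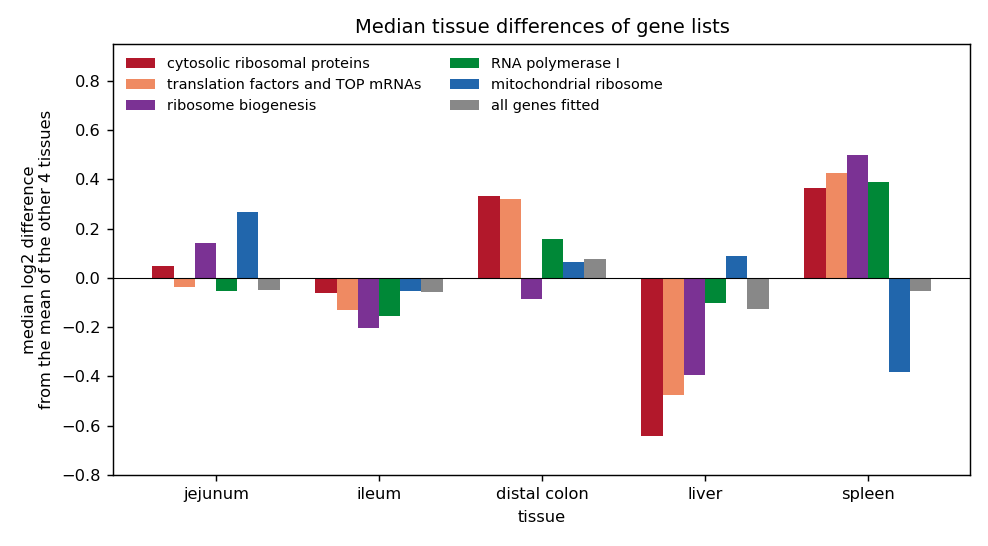
Median log2 difference (y axis) of each tissue (x axis) from the mean of the other 4 tissues, for cytosolic ribosomal proteins, 4 related gene lists and all 13599 genes fitted. Cytosolic ribosomal proteins and translation factors are below 0 in liver and above 0 in distal colon and spleen, whereas the mitochondrial ribosome is above 0 in jejunum and liver and below 0 in spleen.

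Yogurt was set against control within each tissue, where 1 array per diet allows a description and no test. Ribosomal protein transcripts differed little between the diets, with the middle 50% of members spread over 0.03 to 0.08 on the log2 scale, against 0.17 to 0.24 for all genes. A gene was measured in a tissue when at least 1 of its 2 arrays was above the floor. Within 0.1 of no difference lay 36 of 42 members in jejunum, 37 of 42 in ileum, 34 of 42 in distal colon, 33 of 43 in liver and 37 of 42 in spleen, against 54.5%, 53.1%, 54.3%, 53.8% and 41.6% of all measured genes. Members were also mostly among the brightest probe sets, and the part of brightness in this narrow spread was not tested.

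The small shifts had a direction in some tissues. In jejunum 38 of 42 members were lower with yogurt and 4 higher, with a median log2 ratio of -0.04, against -0.01 and 46.5% higher for all genes. In liver 34 of 43 were higher and 9 lower (0.04 against -0.03, 42.2% of all genes higher). In the same liver pair all 10 measured proliferation genes (median 0.39) and all 9 neutrophil markers (0.58) were higher and all 6 measured plasma cell markers lower (-0.41); their part in the shift was not tested. In spleen 30 of 42 were higher and 12 lower (0.02 against -0.05, 38.5% higher). Distal colon had 16 higher and 26 lower (-0.02 against -0.01), and ileum 23 higher and 19 lower (0.01 against -0.04). Scaling mattered at this size. With loess within each tissue pair, 25 jejunum members were lower and 17 higher, and the spleen count of higher members ran from 28 with quantile normalization to 37 with arrays centred on their medians. The liver count of higher members was 29 to 35 under the 4 other scalings, and the ileum median turned to -0.01 with cyclic loess.

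**Figure D4:**
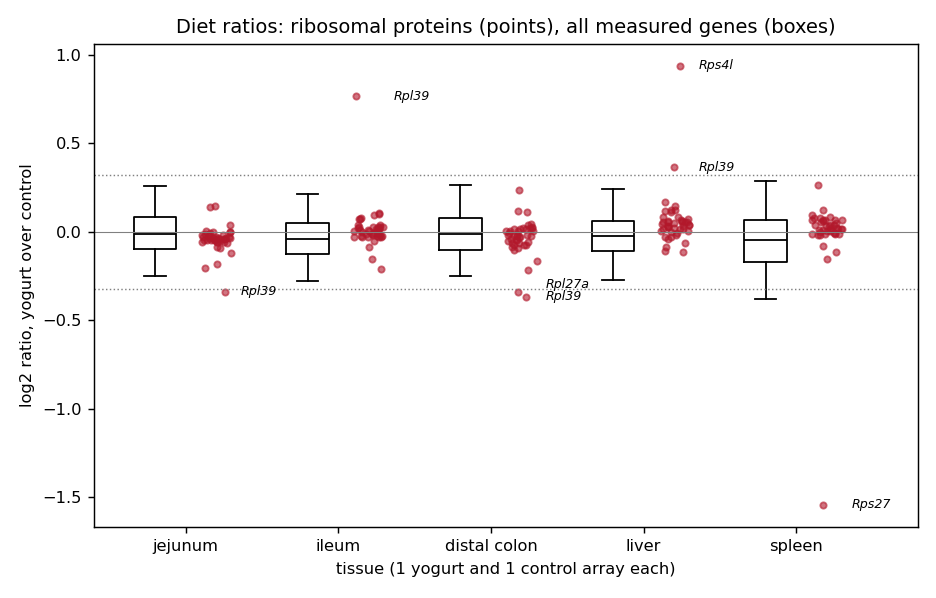
Log2 ratio of yogurt over control (y axis) in each tissue (x axis); red points are the measured ribosomal protein genes and boxes all measured genes (box, middle 50%; line, median; whiskers, 5 to 95 percentiles; dotted lines, 0.32 either side of 0). Red points cluster near 0, and Rps27 in spleen at -1.54 and Rpl39 in 4 tissues are apart, with Rpl27a in distal colon and Rps4l in liver also past a dotted line.

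Few members reached a log2 ratio of 0.32 either way, the threshold set for a diet difference. The counts higher and lower were 0 and 1 in jejunum (2.79% and 2.44% of all genes), 1 and 0 in ileum (1.63% and 3.12%), 0 and 2 in distal colon (3.38% and 2.08%), 2 and 0 in liver (2.45% and 3.0%), and 0 and 1 in spleen (3.71% and 8.08%). Counts of 0 to 2 members are too small to be told from the shares of all genes. The members counted were 4 genes, namely Rpl39, Rps27, Rpl27a and Rps4l.

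Rpl39 passed 0.32 in 4 tissues, on its only probe set. Its values with yogurt and control were 7.36 and 6.59 in ileum (log2 ratio 0.77), 7.30 and 6.94 in liver (0.36), 6.28 and 6.62 in jejunum (-0.34) and 5.96 and 6.33 in distal colon (-0.37). In spleen they were 6.20 and 5.94 (0.26). The probe set was within 2 log2 units of the floor on all arrays, and a floor at the 65th percentile brought the jejunum and distal colon ratios to 0.00 and 0.01 and the spleen ratio to -0.03. Rpl27a was lower in distal colon by -0.34, with ratios of -0.03 to -0.15 in the other 4 tissues. Smooth muscle markers had a median ratio of -0.28 in distal colon and adipocyte markers 1.17; their part in the Rpl27a value was not tested.

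Rps27, a zinc-finger protein of the small subunit, gave the most extreme ratio. On the probe set annotated to Rps27 alone the values with yogurt and control were 8.56 and 8.65 in jejunum, 8.59 and 8.74 in ileum, 9.05 and 9.14 in distal colon, 8.82 and 8.90 in liver, and 7.39 and 8.93 in spleen. The spleen yogurt array was the lowest of the 10 and the other 9 lay within 8.56 to 9.14. The spleen ratio was -1.54, a 2.91-fold lower value and the third lowest of 11875 genes measured there, where 16 (0.135%) were at least 2-fold lower. The next lowest member in spleen, Rpl27a, was at -0.15. With arrays centred on their medians, quantile normalization, loess within the tissue pair or a pseudocount, the Rps27 ratio was -1.38 to -1.52.

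A second probe set, annotated to both Rps27rt and Rps27, did not show this difference. Its values with yogurt and control were 13.22 and 13.27 in jejunum, 13.18 and 13.24 in ileum, 13.43 and 13.45 in distal colon, 11.71 and 11.90 in liver, and 13.60 and 13.62 in spleen. The spleen ratio was -0.02. The largest diet ratio on it was -0.20 in liver, and its liver values lay below the other 8 arrays, as for most of the family. The probe sets also differed in tissue pattern, since that of Rps27 alone was 8.82 and 8.90 in liver against 8.56 to 8.74 in jejunum and ileum. The sources used here do not place either probe set within the transcript. In the spleen, neutrophil markers had a median diet ratio of 1.05 and plasma cell markers -0.29, and the Gapdh 3'/5' ratio was 1.29 with yogurt and 1.01 in control; their part in the Rps27 value was not tested.

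**Figure D5:**
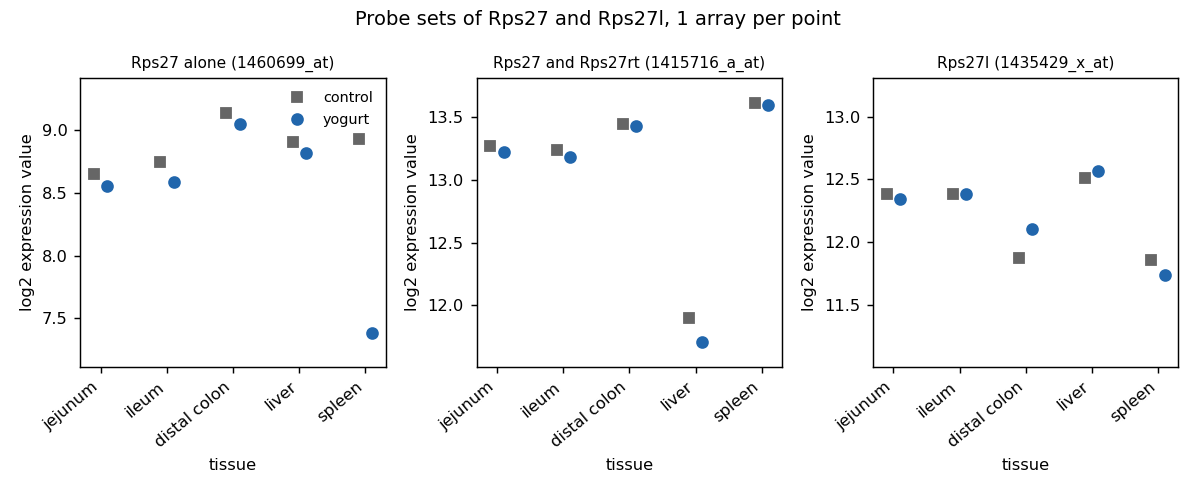
Log2 expression value (y axis, each panel spanning the same range) on each of the 10 arrays (x axis, tissue; circles yogurt, squares control) for the probe set of Rps27 alone, the probe set annotated to Rps27 and Rps27rt, and the main probe set of Rps27l. The spleen yogurt array is at 7.39 against 8.93 in the left panel only; the middle panel has 13.60 against 13.62.

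Rps27l had diet ratios of -0.04 in jejunum, 0.00 in ileum, 0.24 in distal colon, 0.06 in liver and -0.11 in spleen. The distal colon value of 0.24 rested on the main probe set, as its 2 other probe sets gave 0.03 and 0.01 there. Rps4l was higher in the liver yogurt pool, 7.50 against 6.57 (0.94), and unmeasured in the other tissues. Among the 19 genes with several probe sets above the floor on all arrays, 10 had diet ratios that spread by more than 0.2 between probe sets in at least 1 tissue. The Rps3 probe sets ran from -0.06 to 0.29 in jejunum and those of Rps18 from -0.03 to 0.26 in liver. A ratio past 0.32 on such a probe set was seen for Rpl37a and Rps24: 1 of 3 Rpl37a probe sets had -0.41, -0.47, -0.71 and -0.33 in jejunum, ileum, distal colon and spleen, and 1 of the Rps24 probe sets had 0.59 in distal colon, while the other probe sets of these 2 genes above the floor on all arrays lay within 0.11 of 0.

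The genes of special role showed small ratios. On its probe set above the floor, Rps6 was 0.15, 0.09, 0.04, 0.06 and 0.08 higher in jejunum, ileum and distal colon and in liver and spleen. Rps25 was lower by -0.18, -0.21, -0.21, -0.11 and -0.02. Rplp0 and Rplp2 lay between -0.04 and 0.06, Rpl11 between -0.03 and 0.08, and Rpsa between -0.06 and 0.12. Fau lay between -0.08 and 0.05. In jejunum, where most members were slightly lower, exocrine pancreas genes summed to 16.29 with yogurt and 14.89 in control, and 12 of their 13 measured genes were higher. All 10 enterocyte markers were lower there (median -0.17), and all 11 smooth muscle markers (0.16) and all 6 measured neutrophil markers (0.48) were higher. The part of these in the jejunum shift was not tested.

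Over the 5 tissues together, the diet term of the limma fit called 0 of the 43 members and 0 of 13599 genes (0.0% in each direction) at an adjusted p under 0.05. At an unadjusted p under 0.05 it held 3 members, Rps25 (-0.15 ± 0.05), Rpl27a (-0.14 ± 0.05) and Rps6 (0.08 ± 0.03), with adjusted p from 0.406 to 0.445, and 1445 genes in all. The Rps6 term was -0.06 with the mean of all probe sets. Rps27 had the lowest term (-0.39 ± 0.21, adjusted p = 0.554), which rests on the spleen. The spread behind these p-values is between tissues of the same mice.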

How the data were processed

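The authors deposited log2 expression values for 45101 probe sets on 10 arrays. MAS5 and affy appear in the submitters' processing notes, without role or version; the scaling used is not stated there. Probe sets were named through the platform annotation and RefSeq (GRCm38.p6): 34958 had 1 symbol, 932 several (not used for genes) and 9211 none. The members and gene lists were chosen with earlier results of these data known. A floor was set at the 50th percentile of each array. Diet ratios within a tissue have no test. Tissue contrasts were fitted with limma 3.58.1 (R 4.3.3; lmFit, eBayes with trend), tissue and diet being the terms, over genes above the floor on at least 2 arrays, with Benjamini-Hochberg adjustment; the script was tested on simulated data. Named were the 3 highest and 3 lowest members per comparison, copies ending in l, Rps27, the stalk genes, Rpsa, Rpl11 and Rps6; of genes outside the family, Fau, and extremes of each list. Alternatives were other floors, a pseudocount of 32 on antilogged values, 4 scalings, other choices of probe set, no trend and leaving out each array. The number of arrays limits precision.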

Additional observations from a re-analysis of the deposited data

Results flagged for a closer look

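Rpl39, which encodes a short protein of the ribosomal exit tunnel, had log2 diet ratios past 0.32 in opposite directions in different tissues. The ratio of yogurt over control was 0.77 in ileum and 0.36 in liver, and -0.34 in jejunum and -0.37 in distal colon. The difference between the tissues was not tested, since each value rests on 1 array per diet. All 4 came from the gene's only probe set with 1 symbol, whose values of 5.94 to 7.36 lie close to the floor of 5.42 to 5.50. No other member passed 0.32 in both directions.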

How the results depend on the processing

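Tissue is a term of the fit, so its diet term already compares 5 pairs of arrays; within a tissue, no paired analysis was possible because each diet had 1 array. Of the repeated counts and medians, 432 stayed within the limits set (1.5 times for a count, 0.05 for a median), among them all diet-term counts, which stayed at 0, and 53 moved; the cause was not tested. That limit is wider than any median diet ratio of the members in the main analysis, so it says nothing of their stability. The medians ran from -0.05 to -0.01 in jejunum, -0.01 to 0.02 in ileum, -0.03 to -0.01 in distal colon, 0.02 to 0.05 in liver and 0.01 to 0.05 in spleen. For diet ratios past 0.32, raising the floor to the 65th percentile or using a pseudocount of 32 left 0 lower in jejunum and 1 and 0 in distal colon, where the mean of all probe sets left 1 and probe sets not ending in x_at or s_at gave 1 higher. In liver 1 stayed higher with the pseudocount or without symbols ending in l, which also left 1 called higher in the liver contrast. In spleen 2 were lower with a lower floor, at the 35th percentile, or with the mean of probe sets. Of called members, the jejunum contrast had 1 lower with the lower floor, no filter, no trend or probe sets not ending in x_at or s_at, 5 lower after centring, and 6 higher and 11 lower with cyclic loess. Ileum had 4 higher with the mean of probe sets. Spleen had 5 lower with the lower floor or cyclic loess, and distal colon against the small intestine 5 lower after centring or with cyclic loess. Jejunum exceeded ileum for 6 without a filter, 7 with quantile normalization or no trend, and 4 with cyclic loess. Requiring 1.5-fold as well left, higher and lower, 1 and 0 in jejunum, 0 and 0 in ileum and 2 and 1 in distal colon. It left 2 and 23 in liver and 5 and 2 in spleen, where the matching share of all genes is not given here. For distal colon against small intestine it left 0 and 1, and for jejunum against ileum 0 and 0. Leaving out 1 array at a time gave 7 to 14 higher and 1 to 4 lower in jejunum, 3 to 8 and 7 to 16 in ileum, 3 to 5 lower for distal colon against small intestine, and 4 to 10 higher for jejunum against ileum, while liver had 38 to 39 lower and spleen 33 to 36 higher. Signs changed for Rpl39 with the higher floor (0.0043 in jejunum, 0.0073 in distal colon, -0.0304 in spleen) and in its diet term without either ileum array (-0.0196), for the Rpl11 jejunum ratio with quantile normalization (-0.0229), for the Rps6 diet term with the mean of probe sets (-0.0559), for Rps9 on the probe set not ending in x_at or s_at (0.0702 in jejunum, -0.2595 for distal colon against small intestine) and for Rpl37a in ileum with the mean of probe sets (0.0477). Of single genes, 23 calls were lost with the sign kept, 27 diet ratios moved and 5 results were counted as reversed. Among the reversed, Rps9 in jejunum and Rpl37a in ileum also lost their calls. Rps4l, Rpl39 and Rpl12 had the lowest means of the tested members, nearest to the floor.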

Other observations

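Among the copies and relatives of ribosomal proteins that the naming rule does not take, Rpl22l1, the copy of Rpl22, was lower in liver by -0.77 ± 0.03 (adjusted p = 8.24e-08, limma) and higher in spleen by 0.42 ± 0.03 (adjusted p = 2.67e-06, limma). Its values with yogurt and control were 11.41 and 11.42 in liver, 11.94 on both ileum arrays and 12.18 to 12.37 on the other 6. Rpl7l1 was higher in spleen (0.41 ± 0.04, adjusted p = 3.69e-05, limma) and lower in ileum (-0.41 ± 0.04, adjusted p = 7.6e-05, limma), with a liver difference of 0.10 that was not called (adjusted p = 0.0703). Rps19bp1, which encodes a binding partner of Rps19, was higher in liver by 0.36 ± 0.05 and lower in spleen by -0.25 ± 0.05 (adjusted p = 0.000255 and 0.00205, limma). Their diet ratios lay between -0.13 and 0.10 in the 5 tissues.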
